A study of Rattus norvegicus with 8 samples.

Results

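Of the 19120 loci in the deposited gene table of bone around titanium implants, 1563 (8.17%) carry the name of a sequenced clone or contig in place of a gene symbol and span at most 300 bp. They were chosen by a name that begins with AABR, or with AC and a digit, and by a length, from the first to the last base of the listed interval, of up to 300 bp. The rule itself reads names and coordinates only. Of these loci, 1166 have AABR names and 397 have AC names, and 0 have a description in the table.

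Names of this kind come from gene annotation of the rat genome: where a predicted gene matches no known gene, it takes the identifier of the contig or clone that holds it, with a number after the point. Such entries are a mixed lot that can include short non-coding RNAs, copies of processed transcripts and fragments of larger genes. In libraries made from RNA that was depleted of ribosomal RNA, rather than selected by its tail, small structured RNAs can be kept along with messenger RNA. The table gives these loci no kind of RNA, so none is assigned to them here.

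Male Wistar rats aged 12 to 13 weeks received root-form titanium implants in the shafts of both femora, and bone was taken from the 1 mm around the implants at day 10. The hyperlipidemic group had been fed a high-fat diet for 8 weeks and the normal group a normal diet, with 4 libraries in each group. All rats of both groups carried implants, so the comparison is between diets and holds no bone without an implant. Expression is in FPKM, fragments normalized to the length of the locus and to the mapped fragments of the library, on the rat build Rnor_6.0. FPKM alone leaves sequencing depth unknown, so values carry no counting interval. Whether the 4 libraries of a group came from separate animals is not stated in the labels, so p-values cover the spread among the 8 libraries only, which may be technical. In whole bone, fewer cells of a type and less RNA per cell cannot be told apart.

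The tissue label was checked with genes of bone-forming cells. Bglap, which encodes osteocalcin, was at 112 to 170 FPKM in hyperlipidemic libraries and at 263 to 406 FPKM in normal libraries. It was itself called lower at the threshold given below (log2 change -1.25, limma adjusted p = 0.0201). Col1a1, the main collagen of bone, was at 518 to 1055 and 1252 to 1942 FPKM in hyperlipidemic and normal libraries, and the bone matrix protein gene Ibsp at 46.6 to 129 and 18.5 to 152 FPKM. Neither Col1a1 nor Ibsp was called (limma adjusted p of 0.122 and 0.971). All 7 bone markers measured of 8 listed were above 0 in every library, and their summed level was 757 to 1430 FPKM in hyperlipidemic and 1881 to 2547 FPKM in normal libraries. Summed markers of fat were at 111 to 414 FPKM in hyperlipidemic and 48.2 to 117 FPKM in normal libraries. Those of skeletal muscle were at 1.85 to 77.1 FPKM in hyperlipidemic and 0.193 to 21.8 FPKM in normal libraries, and those of red cell precursors at 631 to 1095 and 524 to 843 FPKM in hyperlipidemic and normal libraries. Of the fat markers, 9 of 9 were measured, with 8 above 0 in all hyperlipidemic and 3 in all normal libraries. Of the muscle markers, 10 of 11 were measured and 1 was above 0 in every library of each group, and of the red cell markers, 7 of 8 were measured, with 7 above 0 in all hyperlipidemic and 6 in all normal libraries. Mitochondrial transcripts took 1.74% to 2.70% of the gene FPKM in hyperlipidemic libraries and 0.713% to 1.21% in normal ones. Normal replicate 1 stood apart from the other normal libraries at many of the loci described here. The main counts and some of the loci are given with and without it. The calls by length class and many single loci are given with all libraries only. The part that any of these measures has in the results was not tested.

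The 1563 loci lay on all 20 autosomes and the X chromosome, from 160 on chromosome 1, 137 on chromosome 10 and 120 on chromosome 3 to 31 on chromosome 16. They made up between 5.87% of the listed loci on chromosome 16 and 12.3% on chromosome 17. None of the 24 listed loci of the Y chromosome or the 23 of the mitochondrial genome met the rule. Lengths ran from 35 bp, at AC141169.2 within the translation elongation factor gene Eef1b2, to 300 bp with a median of 121 bp and quartiles of 92 and 145 bp, and 1189 of the loci were shorter than the 150-bp reads. Because FPKM divides by length, a given number of fragments yields a higher value at such a short locus than at a gene of ordinary size. The sources used here do not say how fragments longer than a locus were assigned to it. Some lengths recurred: 85 loci measured exactly 107 bp, 32 measured 129 bp, 28 measured 132 bp and 27 measured 134 bp. There were 26 loci each of 99 and 131 bp, 25 of 106 bp, 24 of 164 bp, 22 of 80 bp and 19 of 191 bp. A clone name shared with another of these loci, differing only after the point, was carried by 445. Among loci next to the length limit, AABR07065789.3, at 300 bp, averaged 73.1 FPKM in hyperlipidemic and 44.3 FPKM in normal libraries, and AABR07008910.1, 1 bp over the limit, averaged 142 and 227 FPKM.

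Many of the loci sit inside other listed loci. An overlap of at least 1 bp with another locus was found for 665 (42.5%), of which 660 were wholly contained, and the loci they overlapped numbered 580. The table gives no strand, so whether a locus runs with or against the gene that holds it is not known, and fragments of overlapping loci cannot be told apart. Sfmbt2, a Polycomb group gene on chromosome 17, held 14 of the loci, and each of the 2 listed loci of the ribosomal protein gene Rpl7a held 4. The other 898 loci lay outside any listed locus, with a median distance of 13834 bp to the nearest one. The RefSeq gene table for rat assembly GRCr8 lists 7 of the names as synonyms of annotated genes. AABR07026317.1 is given there as the ribosomal protein pseudogene Rps28-ps1, and it was at 14.8, 10.8, 4.42 and 14.8 FPKM in the hyperlipidemic and at 9.24, 21.3, 22.3 and 21.5 FPKM in the normal libraries (log2 change -0.73, limma adjusted p = 0.448). The other 6 are listed as Wtip, Dock2, Gpbp1l2 and the pseudogenes Cdc42se2-ps1, Gng5-ps4 and Rpl37a-ps5. For Gpbp1l2 the RefSeq chromosome differs from that of the locus. Of the 7, 4 passed the filter described below and none was called.

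Most of these loci were listed at low values, while a few were among the highest in the table. The mean FPKM over the 8 libraries had a median of 0.794, against 2.53 over all loci. A mean of at least 1 FPKM was reached by 721 loci, of at least 10 by 236, of at least 100 by 80, of at least 1000 by 28 and of at least 10000 by 12. In the whole table, 57 loci reached 1000 FPKM and 16 reached 10000 FPKM, so these short loci made up 12 of the 16 at the top. Spearman's rho between length and mean FPKM was 0.027 across the 1563 loci, which share the same libraries. Values above 0 were listed for 839, 976, 519 and 630 of them in hyperlipidemic replicates 1 to 4 and for 724, 1040, 753 and 537 in normal replicates 1 to 4. Only 278 were above 0 in all 8 libraries, and 451 were above 0 in 1 library alone. A value above 0 in hyperlipidemic libraries only was listed for 212 loci, in normal libraries only for 431, and in both groups for 920. An FPKM listed at 0 can be a failed estimate, so it is not read as absence of the RNA.

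The most abundant of these loci was AABR07064716.2 (chromosome 6, 91457131 to 91457210, 80 bp, 435 bp from the ribosomal protein gene Rps29). It was at 58555, 67333, 49951 and 63547 FPKM in the hyperlipidemic libraries, in the order of their replicate numbers, and at 1884, 77907, 52639 and 59944 FPKM in the normal libraries. Apart from the low value of normal replicate 1, the libraries lay close together and the groups overlapped (log2 change 1.19, SE 1.09, limma adjusted p = 0.638). AABR07072283.1 (chromosome 12, 24796359 to 24796428, 70 bp) was at 27282, 29316, 19033 and 26210.0 FPKM in the hyperlipidemic and at 1533, 30809.6, 30246 and 26733 FPKM in the normal libraries. Again normal replicate 1 alone was far from the rest, and the change was not called (log2 change 0.85, adjusted p = 0.696). The direction of both changes turned without normal replicate 1, to a log2 change of -0.075 and -0.22.

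AABR07064724.2 (chromosome 6, 91680317 to 91680386, 70 bp) and AABR07037925.1 (X chromosome, 35488278 to 35488337, 60 bp) also had their lowest value in normal replicate 1. The value of AABR07037925.1 was 39.0 FPKM in normal replicate 1, against 7545 to 11653 FPKM in hyperlipidemic libraries and 9420.3 to 29778 FPKM in normal replicates 2 to 4. Without normal replicate 1 its log2 change was -1.09 instead of 1.15, and that of AABR07064724.2 was -0.81 instead of 0.13. Neither passed the test in any fit. AABR07060727.1 (chromosome 4, 91233098 to 91233289, 192 bp) was at 10652 to 21602 FPKM in hyperlipidemic libraries and at 1493, 29301, 55280.4 and 57302 FPKM in the normal libraries. AC095278.2 (chromosome 10, 89562040 to 89562230, 191 bp) was at 8579 to 17496 FPKM in hyperlipidemic libraries and at 1738, 21022, 40019 and 40855 FPKM in the normal libraries. Both therefore had normal libraries on either side of the hyperlipidemic ones, and AC121204.3 (chromosome 5, 58994682 to 58994953, 272 bp) overlapped likewise, at 7816 to 11937 and 5647 to 26218 FPKM. None of these 3 was called (adjusted p of 0.930, 0.945 and 0.656). Their overlap rests on normal replicate 1, since normal replicates 2 to 4 were above every hyperlipidemic library at all 3. Without normal replicate 1 their log2 changes were -1.48, -1.23 and -1.06, still not called (limma adjusted p of 0.147, 0.243 and 0.250). The remaining 3 of the 10 most abundant loci, AABR07030444.1, AABR07064316.1 and AABR07064316.4, were lower in every hyperlipidemic library than in any normal library and are described below.

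**Figure D1:**
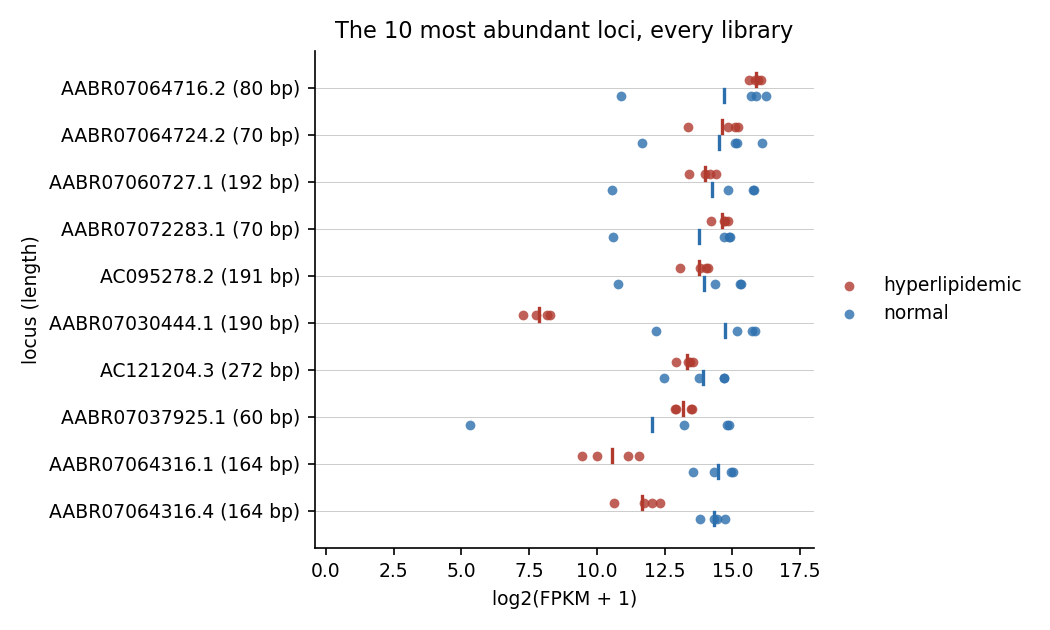
FPKM of the 10 most abundant loci in every library, on the log2(FPKM + 1) scale, with hyperlipidemic libraries (red, upper row of each locus) above normal libraries (blue, lower row) and vertical ticks at the group means. In 7 loci the groups overlap, with 1 normal library, replicate 1, far below the others in most of them, and in 3 loci all 4 hyperlipidemic libraries lie below all 4 normal ones.

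Summed over all 1563, these loci took 40.4%, 44.9%, 33.5% and 37.5% of the gene FPKM in hyperlipidemic replicates 1 to 4 and 36.5%, 59.9%, 64.2% and 62.9% in normal replicates 1 to 4. The hyperlipidemic libraries were all lower than normal replicates 2 to 4, while normal replicate 1 lay within their range. The difference between group means was -16.8 percentage points with all 8 libraries and -23.3 percentage points without normal replicate 1. No test was made of a score over the loci. Loci of over 150 and up to 200 bp held 13.0%, 11.01%, 7.07% and 11.4% in hyperlipidemic libraries and 19.3%, 24.4%, 37.2% and 35.2% in normal libraries, without overlap. Loci of up to 100 bp held 21.9% to 29.5% in hyperlipidemic libraries, and 6.13%, 27.2%, 19.9% and 19.0% in normal libraries. Those of over 100 and up to 150 bp, though 702 in number, held 0.778% to 0.957% in hyperlipidemic and 2.76% to 4.21% in normal libraries. The 10 most abundant loci made up 77.7% to 81.5% of the summed FPKM of the 1563 in hyperlipidemic libraries, and 29.0% in normal replicate 1 and 68.8% to 73.0% in the other normal libraries. Those 10 were then taken out of both the loci and the total gene FPKM. The remaining loci held 8.53% to 14.8% of that smaller total in hyperlipidemic libraries and 28.7% to 34.6% in normal libraries, without overlap. These shares have another base than the shares above.

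**Figure D2:**
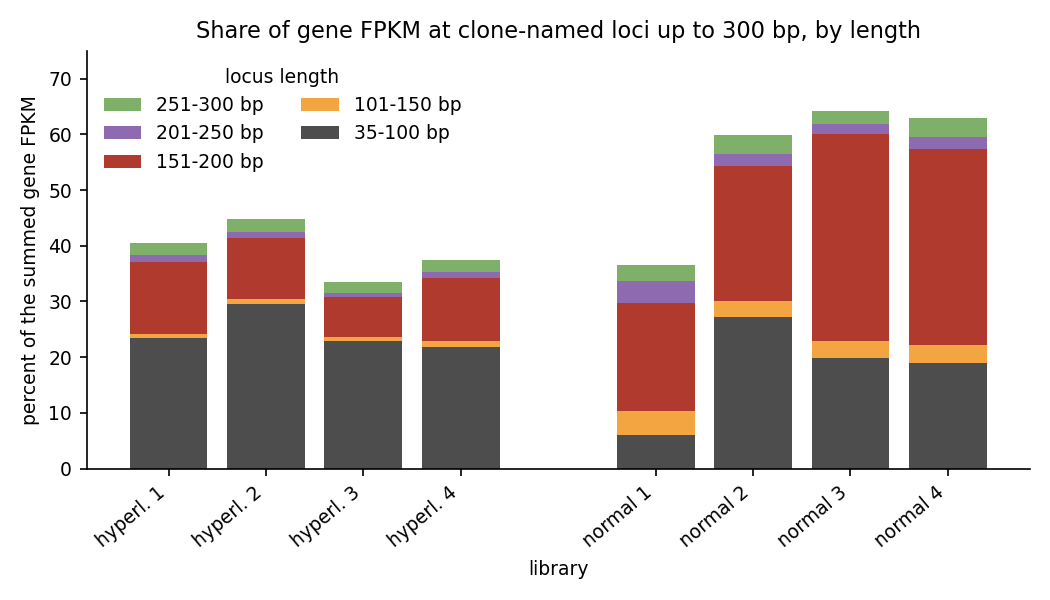
Percent of the summed gene FPKM of each library held by clone-named loci of up to 300 bp, stacked by length class, with hyperlipidemic libraries at the left and normal libraries at the right. The class of over 150 and up to 200 bp (dark red) ranges from 7.07% to 13.0% in hyperlipidemic libraries and from 19.3% to 37.2% in normal libraries, and the class of up to 100 bp (grey) is small in normal replicate 1.

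The comparison of hyperlipidemic with normal libraries asks how expression in bone around an implant differs with the diet. Among these loci, changes past the threshold were mostly decreases. Of the 882 that passed a filter of a mean of at least 0.5 FPKM, 89 fell (10.1%), against a background of 1.24% of all 13742 loci tested, and 5 rose (0.567%), against 0.146%. A call is an adjusted p under 0.05 in a limma fit on log2(FPKM + 1) over all loci, and a log2 change is the mean of hyperlipidemic minus that of normal libraries on that scale, which understates changes of low loci. The 89 made up 52.0% of the 171 loci that fell in the whole table. Without normal replicate 1, 115 fell and 3 rose. The fit called 63 as lower without hyperlipidemic replicate 4, and 58 of the 89 were called in each of the 8 fits that left out 1 library. None of the 5 that rose was called in all 8. At an unadjusted p under 0.05, 168 were lower (19.0%, against 4.4% of all loci tested) and 58 higher (6.58%, against 8.61%).

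The filter left out 681 loci of low mean. Of those tested, 220 had a hyperlipidemic mean under 0.5 FPKM and 102 a normal mean under 0.5 FPKM, and these passed only through the other group. Of the 89 that fell, 39 had a hyperlipidemic mean under 0.5 FPKM and so entered the test through the normal group alone. All 8 libraries were above 0 at 277 of the tested loci. The median log2 change over the 882 was -0.27, against 0.18 over all loci tested, and 58.0% were below 0, against 34.99% of all. Without the 156 loci at 0 in all libraries of a group the median was -0.065. Leaving out normal replicate 3 gave -0.12 and leaving out normal replicate 1 gave -0.14. Every hyperlipidemic library was lower than every normal one at 128 of the loci (14.5%, against 3.75% of all loci tested), and every one was higher at 22 (2.49%, against 4.19%). The scale matters for loci as a whole: with libraries rescaled to equal totals, 167 loci of the whole table rose and 138 fell, against 20 and 171 here, and the median of all loci moved to 0.49. On that scale 82 of the clone-named loci fell and 9 rose.

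On the log2(FPKM + 1) scale the largest decrease was at AABR07031718.1 (chromosome 18, 29647838 to 29647981, 144 bp, 3186 bp from the zinc finger gene Zmat2). It was at 5.15, 4.35, 0 and 10.0 FPKM in the hyperlipidemic libraries and at 3127, 2967, 1731 and 3844 FPKM in the normal libraries. Every normal library was thus above 1000 FPKM while no hyperlipidemic library reached 100 FPKM (log2 change -9.33, SE 0.62, limma adjusted p = 2.22e-05). AABR07008947.1 (chromosome 2, 80610579 to 80610850, 272 bp) lies within Trio, a gene for a guanine nucleotide exchange factor. It was at 0.816, 0.839, 0.719 and 0 FPKM in the hyperlipidemic and at 4582, 789.7, 231 and 1059 FPKM in the normal libraries. The groups were far apart although the normal libraries spread widely, with replicate 1 highest (log2 change -9.29, SE 0.71, adjusted p = 6.35e-05). The order depends on the measure: the ratio of the normal to the hyperlipidemic mean was 597 at AABR07031718.1 and 2806 at AABR07008947.1, and with a pseudocount of 0.1 FPKM the log2 change of AABR07031718.1 was -10.31 and the log2 change of AABR07008947.1 was -10.88.

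AC114512.2 (chromosome 5, 140987449 to 140987580, 132 bp) lies within Pabpc4, which encodes a protein that binds the tails of messenger RNAs. It was at 0.791, 1.42, 2.41 and 1.23 FPKM in the hyperlipidemic and at 974, 1010.0, 468 and 1442 FPKM in the normal libraries, without overlap (log2 change -8.56, SE 0.34, adjusted p = 7.59e-07). AABR07071947.2 (chromosome 1, 164436586 to 164436730, 145 bp), within the ribosomal protein gene Rps3, was at 7.38, 3.78, 6.36 and 1.25 FPKM in the hyperlipidemic and at 909, 828, 747 and 1509 FPKM in the normal libraries (log2 change -7.57, adjusted p = 6.78e-06). A second locus within Rps3, AABR07071947.1 (164440292 to 164440439, 148 bp), was at 5.46 to 9.50 FPKM in the hyperlipidemic and at 223 to 628 FPKM in the normal libraries (log2 change -5.44, adjusted p = 8.91e-06). Both loci in Rps3 therefore fell, without overlap.

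AC097575.3 (chromosome 12, 46863204 to 46863344, 141 bp) was at 21.3, 25.9, 9.64 and 22.7 FPKM in the hyperlipidemic and at 544, 3851, 7004 and 6487 FPKM in the normal libraries. Its normal libraries were split, with replicate 1 well below the rest and still above all hyperlipidemic libraries (log2 change -7.31, adjusted p = 4.36e-04). AABR07049565.1 (chromosome 5, 129142661 to 129142801, 141 bp) was at 0 to 0.406 FPKM in the hyperlipidemic and at 84.3 to 487 FPKM in the normal libraries. AABR07061187.1 (chromosome 4, 109268217 to 109268350, 134 bp) was above 0 in 1 hyperlipidemic library, at 0.322 FPKM, and at 89.3 to 488 FPKM in the normal libraries. AABR07005613.1 (chromosome 1, 190338092 to 190338384, 293 bp), within the transporter gene Abca16, was at 4.43 to 11.1 FPKM in the hyperlipidemic and at 461 to 1503 FPKM in the normal libraries. These 3 had log2 changes of -7.58, -7.47 and -7.08 and were called in all 8 fits that left out 1 library. AABR07049565.1 and AABR07061187.1 averaged 0.161 and 0.0805 FPKM in hyperlipidemic libraries. They passed the filter through the normal group alone, so their calls only describe them. AC110403.2 and AABR07060522.3, which complete the 10 largest decreases, were at 0 in all hyperlipidemic libraries and are given with the other such loci.

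Among the abundant loci, AABR07030444.1 (chromosome 10, 86430067 to 86430256, 190 bp) lies within Ikzf3, the gene of a lymphocyte transcription factor. It was at 306, 154, 214 and 285 FPKM in hyperlipidemic libraries and at 4675, 36753, 53499.6 and 58682 FPKM in normal libraries. The hyperlipidemic mean was 240.0 ± 69.5 FPKM and the normal mean 38402 ± 24355 FPKM (SD, n = 4 each; log2 change -6.86, limma adjusted p = 7.20e-04). Of the 28 loci with a mean of at least 1000 FPKM, 11 fell. AABR07030184.5 (chromosome 10, 215 bp, within the testis gene Tex14), named here after its values were seen, was at 781 ± 220.0 FPKM in hyperlipidemic and 8277 ± 1902 FPKM in normal libraries (log2 change -3.43, adjusted p = 3.67e-04). Over all 89 loci that fell, the ratio of the normal mean to the hyperlipidemic mean, where the second was above 0, ran from 3.32 to 2858 with a median of 27.7. The highest of the 8 values was in normal replicate 1 at 41 of the 89, in replicate 4 at 30, in replicate 3 at 10 and in replicate 2 at 8.

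**Figure D3:**
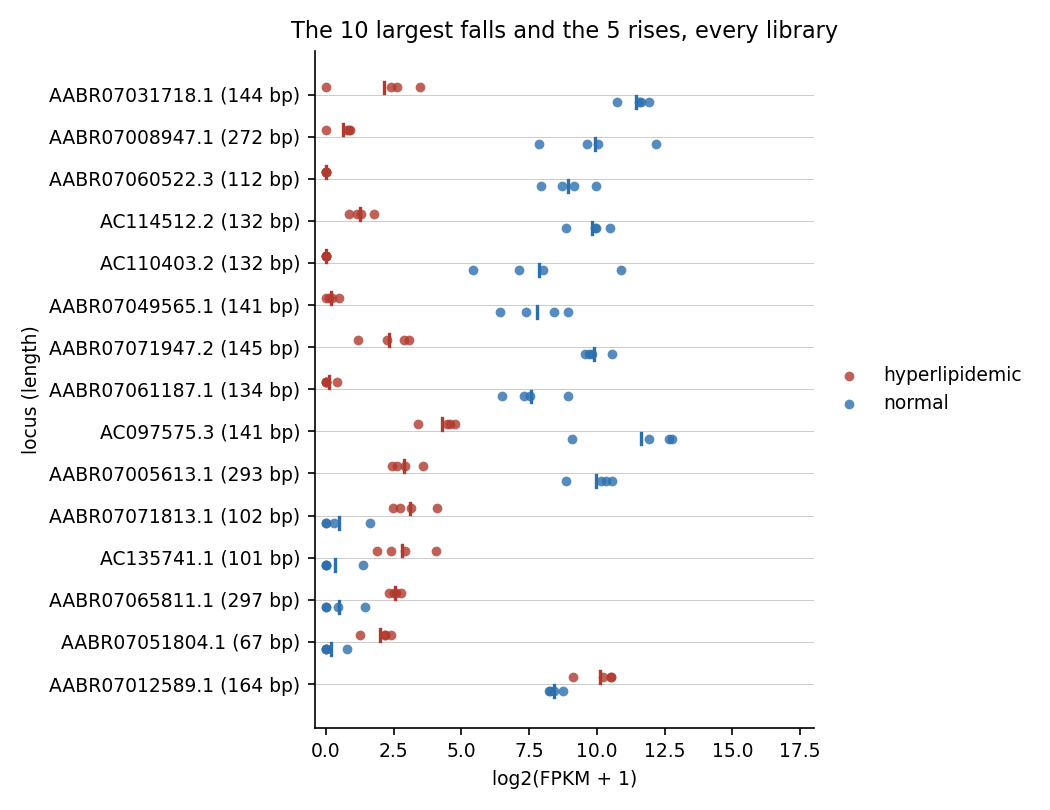
FPKM on the log2(FPKM + 1) scale of the 10 loci with the largest decrease and the 5 that rose, with hyperlipidemic libraries (red, upper row) above normal libraries (blue, lower row) and ticks at the group means. The groups do not overlap at any of the 15 loci, and 4 of the 5 rises stay below 20 FPKM in every library.

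The 5 increases had log2 changes of 1.68 to 2.64, and none was called in all 8 fits that left out 1 library. AABR07071813.1 (chromosome 8, 131897322 to 131897423, 102 bp, within the zinc finger gene Zfp445) was at 5.67, 4.600, 7.86 and 16.2 FPKM in the hyperlipidemic and at 0, 2.07, 0.230 and 0 FPKM in the normal libraries (log2 change 2.64, SE 0.47, limma adjusted p = 0.0198). AC135741.1 (chromosome 12, 25105612 to 25105712, within the translation initiation factor gene Eif4h) was at 2.72, 4.26, 15.7 and 6.51 FPKM in the hyperlipidemic and at 1.55 FPKM in normal replicate 2 and 0 in the other normal libraries (log2 change 2.48, adjusted p = 0.0430). All hyperlipidemic values of both were above all normal ones, but the normal values were near 0.

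AABR07065811.1 (chromosome 6, 142059736 to 142060032, 297 bp) was at 4.06 to 5.86 FPKM in the hyperlipidemic and at 0 to 1.73 FPKM in the normal libraries (log2 change 2.08, adjusted p = 0.0199). AABR07051804.1 (chromosome 3, 22545528 to 22545594, 67 bp) was at 1.40 to 4.31 FPKM in the hyperlipidemic libraries and above 0 in 1 normal library, at 0.721 FPKM (log2 change 1.81, adjusted p = 0.0386). AABR07012589.1 (chromosome 2, 198622084 to 198622247, 164 bp), the only abundant one, was at 1471, 1471, 560.3 and 1196 FPKM in the hyperlipidemic and at 299, 344, 308 and 434 FPKM in the normal libraries (log2 change 1.68, adjusted p = 0.0370). Each of the 5 calls ended when certain libraries were left out. The call of AABR07071813.1 ended without hyperlipidemic replicate 1, 3 or 4 or normal replicate 4 (adjusted p up to 0.0753), and that of AABR07065811.1 without any 1 hyperlipidemic library or normal replicate 4 (up to 0.0955). The call of AC135741.1 ended without hyperlipidemic replicate 2, 3 or 4 or normal replicate 1, 3 or 4 (up to 0.148), and that of AABR07051804.1 without hyperlipidemic replicate 1, 3 or 4 or normal replicate 1, 3 or 4 (up to 0.158). That of AABR07012589.1 ended without hyperlipidemic replicate 1, 2 or 4 or normal replicate 2, 3 or 4 (up to 0.143).

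At 26 of the loci every hyperlipidemic library was listed at 0 and every normal library was above 1 FPKM. These loci were picked for that separation and passed the filter through the normal libraries alone, so the calls and adjusted p-values given for them, 24 calls in all, only describe them. No locus, clone-named or other, showed the reverse. Of all tested loci, 42 had this pattern, and 26 of those were these short loci. Of the 26, 20 measured over 100 and up to 200 bp and 24 lay outside any other listed locus. The level in normal libraries ranged from 1.05 to 1904 FPKM. AABR07060522.3 (chromosome 4, 77463050 to 77463161, 112 bp) was at 247, 568, 419 and 1008 FPKM in the normal libraries (limma adjusted p = 7.59e-07), and AC110403.2 (chromosome 3, 72885408 to 72885539, 132 bp) at 1904, 259.7, 42.5 and 138 FPKM (adjusted p = 0.00112). The normal libraries lay close together at AABR07040228.1 (X chromosome, 95958597 to 95958771, 175 bp), at 47.3, 38.7, 46.0 and 51.5 FPKM, and at AABR07017513.2 (chromosome 15, 24789343 to 24789506, 164 bp), at 37.5, 34.3, 42.5 and 48.2 FPKM. Both had an adjusted p of 7.59e-07.

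At others of the 26, normal replicate 1 was far above the other normal libraries. AABR07050200.1 (chromosome 5, 141 bp) was at 677 FPKM in normal replicate 1 and at 8.41, 18.5 and 18.6 FPKM in the other normal libraries (limma adjusted p = 0.0430). AABR07053828.2 (chromosome 3, 127 bp) was at 581 FPKM in normal replicate 1 and at 15.3 to 22.4 FPKM in the others (adjusted p = 0.0194), and AC119116.1 (chromosome 10, 57319293 to 57319507, 215 bp) at 782 FPKM and 16.9 to 82.6 FPKM (adjusted p = 0.00531). That normal replicates 2 to 4 were also above the hyperlipidemic libraries follows from how these loci were picked. Calls that ended without any 1 hyperlipidemic library were those of AABR07050200.1, AABR07053828.2, AABR07002908.1, AABR07038019.2, AABR07029742.2, AABR07030156.1, AABR07019061.1 and AABR07029741.4, with an adjusted p of up to 0.152. Some of these calls also ended without normal replicate 2, 3 or 4, and none ended without normal replicate 1. The 2 of the 26 that were not called were AABR07052584.1 (adjusted p = 0.135) and AABR07064510.1 (0.140). The other loci at 0 in all hyperlipidemic libraries, AC128402.2, AABR07009900.1, AABR07047467.1, AC111734.3, AABR07008825.1, AC123346.1, AABR07066515.2, AABR07051357.1, AC110699.2, AC123188.1 and AABR07067947.1, were called in all 8 fits that left out 1 library.

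The share of loci that fell varied with length. Of loci of up to 100 bp, 5 of 283 tested fell (1.77%) and their median log2 change was 0.11. Of those of over 100 and up to 150 bp, 45 of 400 fell (11.3%, median -0.49), and of those of over 150 and up to 200 bp, 27 of 94 fell (28.7%, median -1.08). Loci of exactly 164 bp gave 16 of those 27, and of the other 73 in that class 11 fell (15.1%). The share was 15.6% of 32 loci of over 200 and up to 250 bp and 9.59% of the 73 longest loci, with medians of -0.57 and -0.11. Clone-named loci of over 300 and up to 1000 bp gave 25 decreases of 379 tested (6.6%), and the other-named loci of up to 300 bp gave 10 of 162 (6.17%). The medians of those other-named loci were 0.13, -0.59 and -1.10 in the classes ending at 100, 150 and 200 bp, and 0.064 and -0.35 in the classes ending at 250 and 300 bp. Their decreases, in the same order, were 0 of 61, 2 of 57, 2 of 11, 2 of 13 and 4 of 20 tested. Other-named loci of over 300 and up to 1000 bp gave 34 decreases of 427 tested (7.96%). Of loci over 1000 bp, 2 of 388 clone-named ones fell and 0 rose, with a median of 0.091. Of the other-named ones over 1000 bp, 11 of 11504 fell and 13 rose, with a median of 0.21. Decreases were thus rare over 1000 bp under both kinds of name. No test of the difference between length classes was made.

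**Figure D4:**
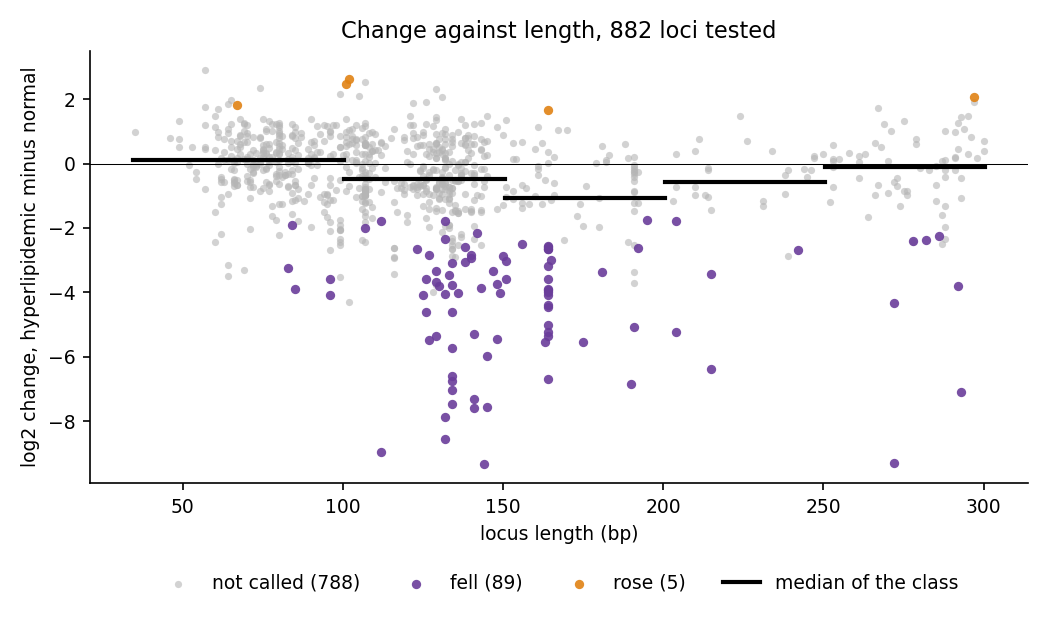
Log2 change, hyperlipidemic minus normal, against locus length in bp for the 882 loci tested, with loci that fell in purple, loci that rose in orange, loci not called in grey and the median of each length class as a black bar. Most decreases lie between 100 and 200 bp, with a column at 164 bp, and the medians run from 0.11 at up to 100 bp to -1.08 in the class ending at 200 bp.

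Loci of exactly 164 bp were singled out after the values were seen. There were 24, of which 21 were tested, 16 fell and 1 rose. Among them, AABR07064316.1 (chromosome 6, 75614240 to 75614403) was at 2991, 2291, 706 and 1017 FPKM in the hyperlipidemic and at 11881, 33359.5, 20643 and 31599 FPKM in the normal libraries (log2 change -3.92, SE 0.55, limma adjusted p = 0.00485). Its neighbour AABR07064316.4 (75622796 to 75622959) was at 5108, 4183, 1573 and 3409 FPKM and at 21931, 20219, 14236 and 27422 FPKM in hyperlipidemic and normal libraries (log2 change -2.64, adjusted p = 0.0190). The call of AABR07064316.4 ended without hyperlipidemic replicate 2, 3 or 4 or normal replicate 4 (up to 0.0960). Another locus of the same clone, AABR07064316.2 (75606802 to 75606965), was at 430.0 to 1291 FPKM and 4776 to 7298 FPKM (log2 change -2.65, adjusted p = 0.00591). All 3 were thus lower in each hyperlipidemic library, and hyperlipidemic replicate 3 was the lowest library at each.

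A pair of 164-bp loci on chromosome 2, 1512 bp apart, went in opposite directions. AABR07012589.2 (198623759 to 198623922) was at 1641, 711, 487 and 1388 FPKM in the hyperlipidemic and at 19151, 17142, 20663 and 27300.4 FPKM in the normal libraries (log2 change -4.46, SE 0.44, limma adjusted p = 4.36e-04). Its neighbour AABR07012589.1 is the abundant locus that rose. In normal libraries AABR07012589.2 was the higher of the pair by far, whereas in the hyperlipidemic libraries the levels were similar, 1057 ± 546 FPKM and 1175 ± 429.6 FPKM (SD, n = 4 libraries each). Of the 4 tested 164-bp loci that were not called, AC135306.1 on chromosome 3 averaged 4230.0 ± 1416 FPKM in hyperlipidemic and 3523 ± 1705 FPKM in normal libraries (log2 change 0.35, adjusted p = 0.763), and AC123486.1 on chromosome 10 averaged 6.44 ± 0.806 and 6.50 ± 2.07 FPKM (0.02, adjusted p = 0.976).

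Of 24 tested loci of exactly 134 bp, 8 fell and none rose, with a median log2 change of -2.46. Other recurring lengths gave fewer calls: 5 of 22 tested at 132 bp, 3 of 22 at 129 bp, 1 of 17 at 191 bp and 1 of 36 at 107 bp fell. At further recurring lengths, 0 fell of 15 tested at 131 bp, 15 at 99 bp, 12 at 106 bp and 19 at 80 bp. Some loci of equal length on different chromosomes had values in nearly constant ratio. Among 284 loci with a mean of at least 5 FPKM and values above 0 in all normal libraries, 7 of 601 pairs of equal length (1.16%) kept their ratio within 1.2 times over the 4 normal libraries, against 63 of 39585 pairs of different length (0.159%). AC128402.2 on chromosome 6 and AABR07067138.1 on chromosome 9, both 134 bp, were at 241, 92.0, 55.4 and 105 FPKM and at 239.5, 92.9, 56.1 and 108 FPKM in the normal libraries. AABR07061187.1 on chromosome 4 and AABR07050083.1 on chromosome 5, also 134 bp, were at 488, 185, 89.3 and 158 FPKM and at 507, 189.8, 93.1 and 158 FPKM. In hyperlipidemic libraries the second pair did not stay together, at 0 to 0.322 FPKM and 3.17 to 12.1 FPKM. AABR07067138.1 and AABR07050083.1 were named after their values were seen. Near-identical copies can share reads, but no sequences were compared here, so whether loci of equal length are copies of each other is not known. Counting loci of such a pair once left 83 decreases.

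No tested locus that overlaps a called locus was itself called, though few calls would be expected among so few loci. Of 392 tested loci that overlap another locus, 27 fell (6.89%) and 2 rose, and of 490 that do not, 62 fell (12.7%) and 3 rose. The 29 called loci in overlap lay on 26 loci, of which 23 were tested and 0 were called by limma (smallest adjusted p = 0.275, log2 changes from -0.35 to 1.32). Of all loci tested, 1.24% fell and 0.146% rose, so 0 of 23 is near that share. At an unadjusted p under 0.05 there were 5 of the 23, with both directions counted together. Of all loci tested, 4.4% were lower and 8.61% higher at that level. Pabpc4 itself averaged 49.3 ± 6.77 FPKM in hyperlipidemic and 32.8 ± 4.75 FPKM in normal libraries (log2 change 0.57, adjusted p = 0.275), while AC114512.2 inside it fell. Rps3 was at 319 ± 29.6 and 354 ± 80.1 FPKM (-0.13), Ikzf3 at 7.75 ± 1.94 and 10.2 ± 2.66 FPKM (-0.35), and Trio at 2.81 ± 0.782 and 3.25 ± 0.156 FPKM (-0.18). Tomm20, a mitochondrial import receptor gene, was at 28.2 ± 1.90 and 31.1 ± 5.996 FPKM, and AC131964.1 inside it was at 0 to 1.49 FPKM in hyperlipidemic and 81.8 to 403 FPKM in normal libraries (log2 change -7.03, adjusted p = 2.43e-05). Prrc2a was at 30.7 ± 3.07 and 27.2 ± 6.19 FPKM, and AC094348.2 inside it was at 0 to 1.78 and 87.6 to 155 FPKM (log2 change -5.74, adjusted p = 1.05e-05).

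Genes of ribosomal proteins, parts of the machinery of translation, held 56 of the loci. Of the 52 tested loci inside 26 such genes, 8 fell (15.4%, against 10.1% of all clone-named loci tested and 1.24% of all loci) and 0 rose, with a median log2 change of -0.22. None of the 26 host genes was called, and of all loci tested 1.24% fell and 0.146% rose. At an unadjusted p under 0.05 there were 10 of the 26, with both directions counted together. Of all loci tested, 4.4% were lower and 8.61% higher at that level. The median log2 change of the host genes was 0.50, against 0.18 over all loci tested. The loci that fell included some in Rps3, Rpsa, Rpl5, Rpl32 and Rplp2. Of the 3 loci inside Rpsa, 2 fell. AABR07071745.3, named after its values were seen, was at 23.6 ± 8.43 FPKM in hyperlipidemic and 143 ± 66.8 FPKM in normal libraries (log2 change -2.49, adjusted p = 0.00506), and Rpsa itself was at 470.0 ± 36.6 and 468 ± 74.3 FPKM. Sfmbt2 was at 0.658 ± 0.243 FPKM in hyperlipidemic and 0.484 ± 0.327 FPKM in normal libraries. Of its 14 loci 4 were tested and none was called, with log2 changes from -0.21 to 1.18.

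**Figure D5:**
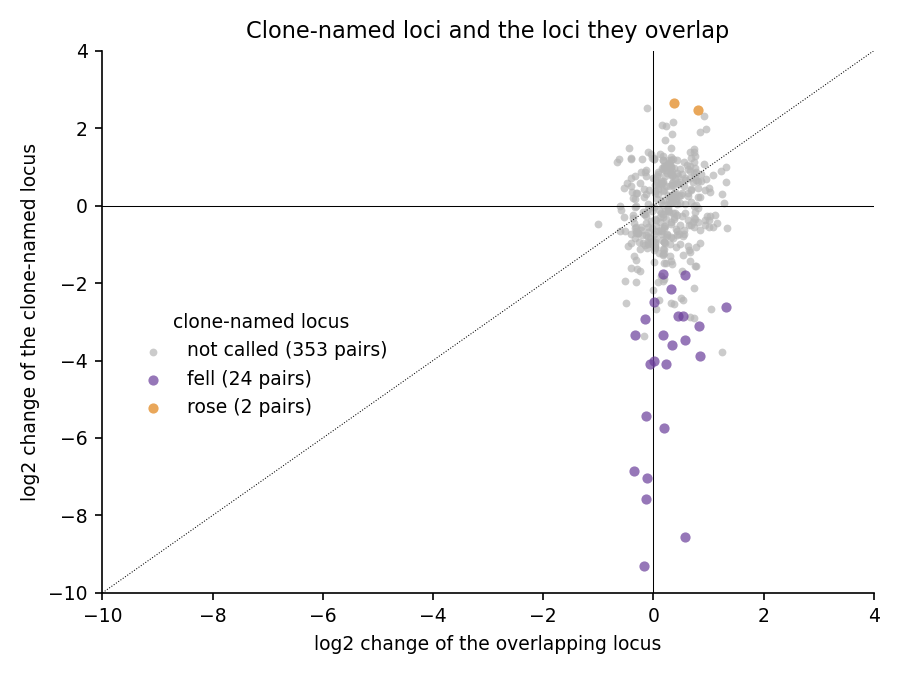
Log2 change, hyperlipidemic minus normal, of each clone-named locus (vertical) against that of the locus it overlaps (horizontal), for 379 pairs with both tested, with loci that fell in purple (24 pairs), loci that rose in orange (2 pairs), loci not called in grey and equal changes along the dotted line. The overlapping loci stay between -0.998 and 1.34, while the clone-named loci reach -9.29.

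The authors also deposited FPKM of long non-coding RNA (lncRNA) transcripts. Of the 1563 loci, 273 overlap a total of 460 lncRNA transcripts by coordinates, of which 458 were tested and 5 were called by limma, 4 higher and 1 lower (background 0.0843% of 14233). These 5 are not separate loci. They include transcripts under 1 assembly identifier that all overlap AABR07015081.1, with log2 changes of 9.08, -8.12 and 6.98. Their share is therefore not read against the background. No lncRNA over a called locus was itself called (33 tested, smallest adjusted p = 0.554, with 6 at an unadjusted p under 0.05). The share of all lncRNAs at that unadjusted level was not computed. For 75 of the loci, 5 of the 10 most abundant among them, the lncRNA table lists transcripts under the same assembly identifier, 299 in all, of which 148 overlap the locus. AABR07064316.1 is an example. A transcript that spans 24209 bp and ends with the last base of that locus was at 2452 FPKM in hyperlipidemic replicate 2 and at 0 in the other hyperlipidemic libraries, against 0, 5894, 14238 and 22591 FPKM in the normal libraries. Another transcript under the same identifier was at 2947 FPKM in hyperlipidemic replicate 1, where the locus itself had 2991 FPKM, and at no more than 0.0808 FPKM elsewhere. The sources used here do not say whether the FPKM of these 75 loci counts fragments outside the listed interval. Without them, 80 of 808 tested loci fell.

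Normal replicate 1 differed from the other normal libraries in both directions. Of the 68 loci at 100 FPKM or more in each of normal replicates 2 to 4, 40 were lower in normal replicate 1 than in any of the others, and 14 were at less than 0.1 times the lowest of them. None of those 14 fell, but the way they were picked made a call unlikely. A low value in 1 normal library widens the normal spread and lowers the normal mean, so no conclusion is drawn from this. Conversely, 21 loci were at 100 FPKM or more in normal replicate 1 and under 10 FPKM in every other library, hyperlipidemic ones included. AABR07041645.1 (X chromosome, 99 bp), chosen with its values known, was at 0 in all hyperlipidemic libraries and at 15221, 0.147, 0 and 0 FPKM in the normal libraries (limma adjusted p = 0.571). The same count was 3 for normal replicate 3 and 0 for each of the other libraries. Among all tested loci over 1000 bp, 37 to 551 were listed at 0 in hyperlipidemic libraries, and 1474, 42, 418 and 1395 in normal replicates 1 to 4.

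In the authors' deposited table, 246 of the 1563 loci (15.7%) are marked down, against 2.83% of all 19120 loci, and 58 (3.71%) are marked up, against 1.73%. The authors' deposited q-value is under 0.05 for 20 loci of the whole table (0.105%), and 13 of them are clone-named loci of up to 300 bp, all 13 lower in the hyperlipidemic group. Those 13 were among the 89 that fell here. The deposited q-value was 3.91e-04 for AABR07040228.1 and 0.00104 for AABR07017513.2 in the authors' deposited table. The largest p-value of a locus that the authors' deposited table marks down or up is 0.635, so a mark does not imply a low p-value in that table.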

How the data were processed

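Expression was measured by RNA sequencing of rRNA-depleted, strand-specific libraries read as 150-bp pairs, with 4 hyperlipidemic and 4 normal libraries of rat bone around implants. The tools named in the submitters' processing notes are bcl2fastq 1.8.4, HISAT2 2.1.0 and StringTie 1.3.3b, with the build Rnor_6.0. The authors deposited FPKM per locus and library, for genes and for lncRNAs. The authors' deposited gene table also gives a fold change (ratio), its log2, a p-value and a q-value, and marks for up and down, and the sources used here do not give the test behind them.

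Loci were taken as members by name and by a length of up to 300 bp. The members and the gene lists were chosen with earlier results of these data known. All loci with a mean of at least 0.5 FPKM were fitted together with limma 3.58.1 (R 4.3.3) on log2(FPKM + 1) with a trend in the prior variance, and p-values were adjusted by Benjamini-Hochberg over all 13742 loci. lncRNAs were fitted on log2(FPKM + 0.1) with a mean of at least 0.1 FPKM. Overlaps are of at least 1 bp on either strand, computed in Python 3.11.15 with pandas 2.3.3. The fit was tested on simulated data with normally distributed noise, in which only loci of higher level were shifted. That simulation did not cover changes at loci of low values or a library that stands apart.

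Low FPKM values were searched for steps worth 1 read. Of 160 to 806 values per library, 2.97% to 4.61% lay within 0.01 of a whole multiple of the most repeated value, so reads were not recovered and the depth is unknown.

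Members named are the 10 most abundant, the 10 largest called changes in each direction without overlap and with a mean of at least 1 FPKM, up to 5 called members inside other loci by p, the shortest and longest tested, up to 5 that share a name with another member, and those at 0 in a whole group and above 1 FPKM in all of the other. Loci next to the length limit, with a RefSeq synonym or of a recurring length are also named. Others are said to have been chosen after their values were seen. Alternatives covered the pseudocount, filters, scaling, the variance trend, library weights, a replicate block and leaving out each library.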

Additional observations from a re-analysis of the deposited data

Results flagged for a closer look

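Of 84 groups of 4 libraries checked, 21 held a library that lay apart from the others by Dixon's criterion at the 95% level, which sets the distance to the nearest library against the whole range. Chance gives about 1 in 20 such groups, and values that share a library are not independent. Normal replicate 1 was the distant library in 15 of the 21, counting the share of FPKM.

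The share of the gene FPKM held by these loci was 36.5% in normal replicate 1 and 59.9% to 64.2% in the other normal libraries. AABR07072283.1 was at 1533 FPKM in normal replicate 1 and at 26733 to 30809.6 FPKM in the others. In the other direction, normal replicate 1 was above the other normal libraries at AC110403.2 (1904 FPKM), AC119116.1 (782 FPKM), AABR07050200.1 (677 FPKM), AABR07053828.2 (581 FPKM), AC094348.2 (155 FPKM, against 87.6 to 97.8 FPKM in the others) and AABR07047467.1 (116 FPKM). The same held at lower levels for AABR07002908.1 (45.9 FPKM), AABR07052584.1 (40.5 FPKM), AABR07029742.2 (27.6 FPKM), AABR07038019.2 (27.5 FPKM), AABR07064510.1 (24.7 FPKM), AABR07030156.1 (22.2 FPKM) and AABR07029741.4 (13.9 FPKM).

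Normal replicate 2 was distant at loci near 0 in the other normal libraries, at AABR07071813.1 (2.07 FPKM), AC135741.1 (1.55 FPKM), AABR07051804.1 (0.721 FPKM) and AC141169.2 (0.133 FPKM). Among hyperlipidemic libraries, replicate 4 was at 0 at AABR07008947.1 while the others were at 0.719 to 0.839 FPKM, and replicate 2 was at 0.322 FPKM at AABR07061187.1 while the others were at 0.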

How the results depend on the processing

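The decrease of 89 loci stayed between 77 and 124 with a pseudocount of 0.1 (86), a mean of at least 5 FPKM (77), array quality weights (124) and every scaling (82 to 90), and it was 63 to 115 when 1 library was left out. It was 53 with no filter and 40 among loci above 0 in all 8 libraries, where fewer loci could be called, and 5 among loci of up to 100 bp alone against 84 among longer ones. The 5 increases became 3 with a pseudocount of 0.1 or median-of-ratios scaling, 1 with a mean of at least 5 FPKM or above 0 in all libraries, 0 with no filter, with a replicate block or with 3 libraries per group, 9 with equal library totals, and 0 to 9 with 1 library left out. The median log2 change of -0.27 was -0.055 with no filter, -0.73 with a mean of at least 5 FPKM, -0.072 with equal totals, -0.065 without loci at 0 in a whole group and -0.37 to -0.12 with 1 library left out. The difference in share of -16.8 percentage points was -23.3 to -14.0 with 1 library left out. It was -21.8 without the most abundant locus and -19.6 without the 10 most abundant. In both of these the removed loci also left the total, so their base differs from that of -16.8 and the sizes cannot be compared directly. The cause of these shifts was not tested.

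Same-numbered libraries of the groups did not deviate together (correlations of 0.026, 0.13, 0.053 and 0.011), and the replicate block, which left 83 decreases and 0 increases, is given here only. The restriction by length, the removal of loci at 0, the merging of loci in constant ratio (83 decreases) and the removal of loci whose identifier the lncRNA table shares (80) were chosen after seeing the data. An overlap of at least 50% of the locus was met by 662 loci, against 665. Overlap on the same strand was not run, since the table gives no strand.

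Among named loci, 874 alternative values kept direction and side of the threshold, 125 lost and 7 gained the call, and 24 turned, all at loci that were not called. AABR07037925.1 became -0.52 with array weights, -1.09 without normal replicate 1 and -0.99 with 3 libraries per group. AABR07060727.1 became 0.44 with quantile normalization, 0.16 with equal totals, and 0.25 and 0.27 without normal replicate 3 or 4. AABR07064716.2 became -0.075 without normal replicate 1 and -0.067 with 3 libraries per group, and AABR07072283.1 became -0.22 and -0.26. AABR07064724.2 became -0.037 with median-of-ratios scaling, -0.029 with scaling to loci over 1000 bp, -0.80 with array weights, -0.023 and -0.060 without hyperlipidemic replicate 1 or 2, -0.81 without normal replicate 1 and -0.97 with 3 libraries per group. AC095278.2 became 0.60 with quantile normalization, 0.23 with equal totals, 0.051 without hyperlipidemic replicate 3, and 0.27 and 0.28 without normal replicate 3 or 4. AC121204.3 became 0.31 with quantile normalization. With each library left out in turn, the log2 change ran from -1.09 to 2.09 for AABR07037925.1, from -1.48 to 0.27 for AABR07060727.1, from -0.075 to 1.71 for AABR07064716.2, from -0.81 to 0.66 for AABR07064724.2, from -0.22 to 1.23 for AABR07072283.1 and from -1.23 to 0.28 for AC095278.2.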
